A study of Homo sapiens with 22 samples.

Results

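The levels of 6 genes, HAL, BDNF, FAXDC2, FAM177B, P3H2 and B3GNT6, were followed across 22 tumours in 5 treatment groups. They were selected on their fitted differences in RNA level between RMC-7977 and at least 1 other group, and they are 6 of the 58735 genes in the deposited table. All 6 were among the 17652 genes with enough counts to be tested. Groups of 4 tumours each received RMC-7977 at 10 mg/kg, RMC-4550 at 30 mg/kg, trametinib at 0.3 mg/kg or cobimetinib at 3 mg/kg, and 6 tumours received Vehicle. All tumours were xenografts of the human lung adenocarcinoma cell line H2110, labelled wild type, which had reached about 300 mm3 before oral dosing on 3 days in a row. H2110 is 1 cell line, and the host of the xenografts is not given in the sources used here. The labels list replicates as separate samples without saying whether each tumour grew in its own animal, so p-values reflect only how these samples vary, possibly for technical reasons.

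Growth signals pass from receptors through the phosphatase SHP2 to RAS, and from RAS through RAF, MEK and ERK to transcription. RMC-7977 is an inhibitor of active RAS proteins, RMC-4550 of SHP2, and trametinib and cobimetinib both of MEK. RAS also signals through effectors other than RAF, so these drugs do not act on exactly the same outputs. Doses differed between compounds, and differences between drugs hold at these doses.

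The 6 genes have unrelated known roles. HAL encodes histidine ammonia-lyase, which begins the breakdown of histidine by turning it into urocanate, chiefly in liver and skin. BDNF encodes a secreted neurotrophin, the ligand of the receptor tyrosine kinase TrkB. FAXDC2 belongs to the fatty acid hydroxylase superfamily, and FAM177B is a little studied paralog of FAM177A1. P3H2 encodes prolyl 3-hydroxylase 2, which modifies prolines of collagens in the endoplasmic reticulum, and B3GNT6 encodes the core 3 synthase that extends mucin-type O-glycans in the gastrointestinal tract.

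Some libraries stood apart. Total counts were between 7761987 and 17265754. In trametinib replicate 4 only 1.99% of detected genes had 1 or 2 counts and in RMC-7977 replicate 3 only 5.02%, against 13.4% to 22.9% in the other 20 libraries. Trametinib replicate 4 had 25.0% of its counts in ribosomal protein genes, and no other library more than 9.23%. RMC-4550 replicate 1 and Vehicle replicate 1 were the least correlated with the others after it, with median rank correlations of 0.936 and 0.933. These 4 libraries were kept, and counts of genes that passed a threshold are also given without them.

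The mean of the RMC-7977 tumours was below the means of all 4 other groups for HAL and BDNF RNA. It was above them for FAXDC2, FAM177B, P3H2 and B3GNT6 RNA. Because these pairs chose the genes, the values that follow for RMC-7977 are a description and carry no test. The fitted level in RMC-7977 tumours was 0.191 times that in Vehicle tumours for HAL and 0.344 times for BDNF. FAXDC2 was 2.37-fold, P3H2 2.70-fold, FAM177B 3.10-fold and B3GNT6 3.14-fold higher in RMC-7977 than in Vehicle tumours.

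**Figure D1:**
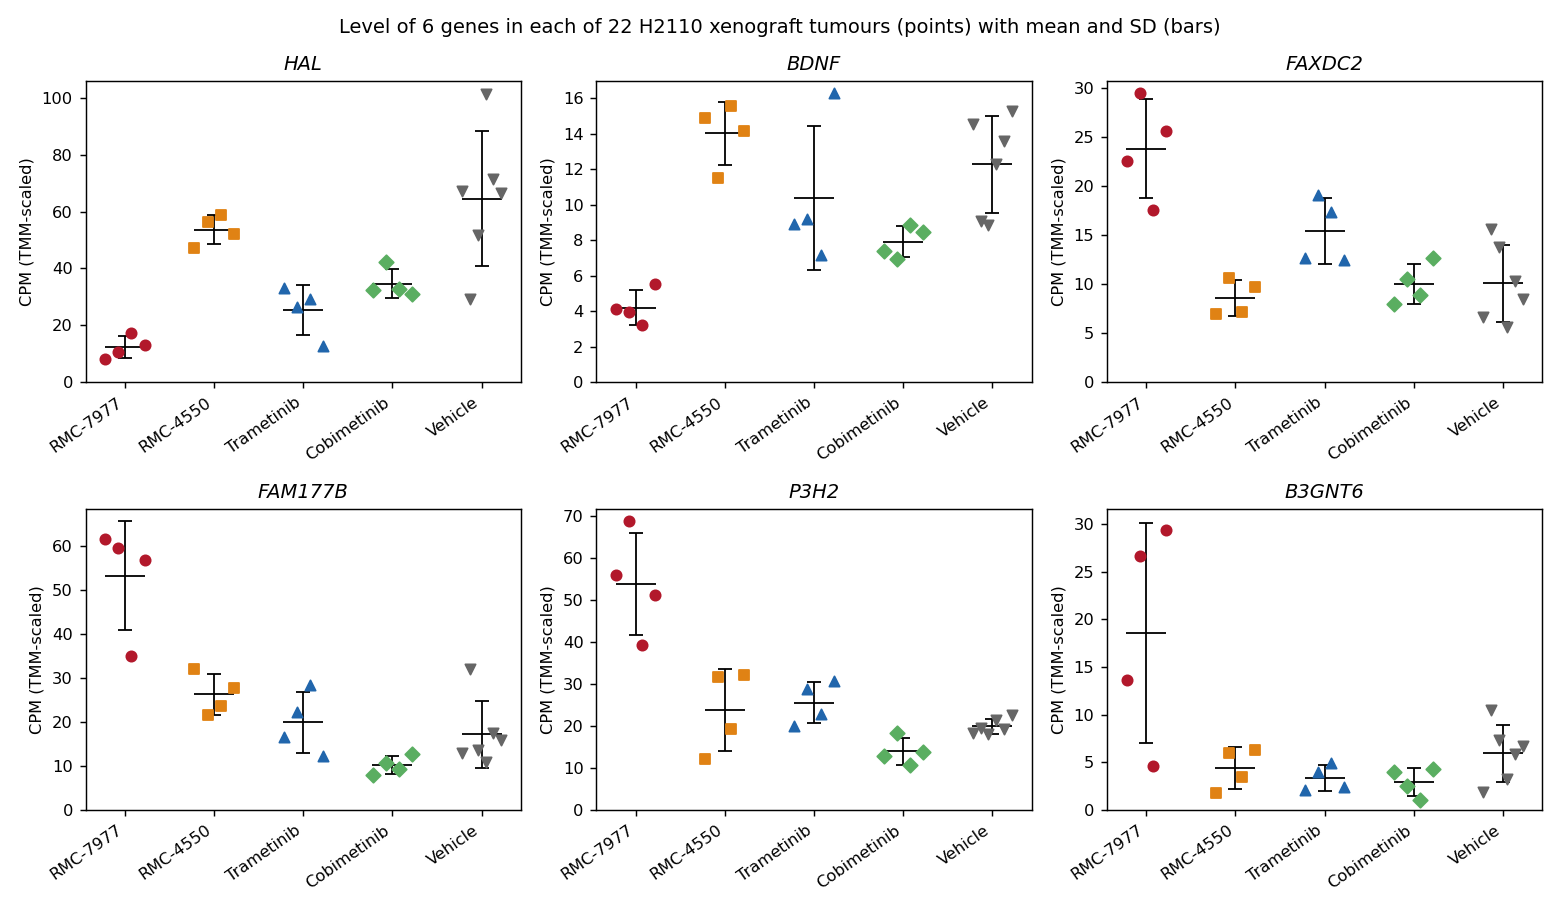
Level of each gene in CPM (read counts scaled to the TMM library size, linear axes from 0) in every tumour of the 5 groups, with points for tumours and bars for the mean and SD (n = 4 per drug, n = 6 for Vehicle). The RMC-7977 tumours have the lowest mean for HAL and BDNF and the highest for the 4 other genes, with B3GNT6 spread from 4.59 to 29.4 CPM within RMC-7977.

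HAL lies on chromosome 12 at 95972662 to 95996365 of hg38, on the minus strand (ENSG00000084110). Its level was 8.20, 10.6, 17.4 and 13.1 CPM in the RMC-7977 tumours and 47.3, 56.3, 59.0 and 52.2 CPM in the RMC-4550 tumours. It was 33.0, 26.5, 29.1 and 12.6 CPM under trametinib and 32.5, 42.1, 32.8 and 30.9 CPM under cobimetinib. The 6 Vehicle tumours had a lowest, median and highest level of 29.4, 66.9 and 101 CPM. All RMC-7977 tumours were below all tumours of RMC-4550, cobimetinib and Vehicle, and the trametinib tumour at 12.6 CPM, replicate 4, lay inside the RMC-7977 range. As TPM (counts divided by gene length and scaled to a fixed sum), that trametinib tumour was at 4.56. This was below the RMC-7977 range of 5.08 to 10.6 TPM. The group means were 12.3 ± 3.94 CPM for RMC-7977, 53.7 ± 5.10 for RMC-4550, 25.3 ± 8.86 for trametinib, 34.6 ± 5.08 for cobimetinib and 64.6 ± 23.7 for Vehicle (SD, n = 4 per drug, n = 6 for Vehicle). In the order of the means, only the step between RMC-4550 and cobimetinib separated neighbours with no shared range. The fitted log2 fold change of RMC-7977 was −2.12 ± 0.31 (SE) against RMC-4550, −1.04 ± 0.31 against trametinib, −1.49 ± 0.31 against cobimetinib and −2.39 ± 0.30 against Vehicle.

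BDNF lies on chromosome 11 at 27654893 to 27722058, minus strand (ENSG00000176697). Its level was 4.10, 3.96, 3.23 and 5.53 CPM in the RMC-7977 tumours and 14.9, 11.5, 15.5 and 14.1 CPM in the RMC-4550 tumours. It was 8.89, 9.22, 7.16 and 16.3 CPM under trametinib and 7.40, 6.97, 8.84 and 8.46 CPM under cobimetinib. Vehicle tumours had a lowest, median and highest level of 8.84, 12.9 and 15.3 CPM. Every RMC-7977 tumour was below every other tumour, and the trametinib tumour at 16.3 CPM, replicate 4, was the highest of all 22 in CPM. As TPM that trametinib tumour was at 3.92, below all RMC-4550 tumours (4.56 to 6.20 TPM). Without that tumour the trametinib mean was 8.42 ± 1.10 CPM (SD, n = 3), against 10.4 ± 4.05 with it (n = 4). The log2 fold change of RMC-7977 was −1.73 ± 0.26 (SE) against RMC-4550, −1.29 ± 0.26 against trametinib, −0.91 ± 0.26 against cobimetinib and −1.54 ± 0.25 against Vehicle. An antisense gene, BDNF-AS, lies over BDNF on the opposite strand and shares 701 of its 7740 exon bases (9.06%), and the strand setting of the counting is not given in the sources used here. BDNF-AS had a mean of 1.90 CPM over the 22 tumours, with a log2 fold change of 0.58 ± 0.38 (SE) in RMC-7977 tumours against Vehicle (adjusted p = 0.681).

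FAXDC2 lies on chromosome 5 at 154818491 to 154859252, minus strand (ENSG00000170271). Its level was 22.6, 29.5, 17.6 and 25.7 CPM in the RMC-7977 tumours and 6.97, 10.6, 7.14 and 9.70 CPM in the RMC-4550 tumours. It was 12.7, 19.1, 17.3 and 12.5 CPM under trametinib and 8.02, 10.5, 8.91 and 12.7 CPM under cobimetinib. Vehicle tumours had a lowest, median and highest level of 5.60, 9.40 and 15.6 CPM. The RMC-7977 tumours stood above all tumours of RMC-4550, cobimetinib and Vehicle, but trametinib replicate 2 at 19.1 CPM was above RMC-7977 replicate 3 at 17.6 CPM, so that pair of groups overlapped. The log2 fold change of RMC-7977 was 1.47 ± 0.29 (SE) against RMC-4550, 0.63 ± 0.28 against trametinib, 1.25 ± 0.29 against cobimetinib and 1.24 ± 0.25 against Vehicle. CNOT8, a subunit of the CCR4-NOT deadenylase, overlaps FAXDC2 on the opposite strand in 163 of its 7222 exon bases (2.26%). CNOT8 had a log2 fold change of 0.22 ± 0.15 (SE) in RMC-7977 tumours against Vehicle (adjusted p = 0.682).

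FAM177B lies on chromosome 1 at 222737207 to 222750805, plus strand (ENSG00000197520). Its level was 61.5, 59.6, 34.9 and 56.8 CPM in the RMC-7977 tumours and 32.1, 21.5, 23.6 and 27.8 CPM in the RMC-4550 tumours. It was 16.5, 22.3, 28.3 and 12.3 CPM under trametinib and 7.88, 10.6, 9.25 and 12.7 CPM under cobimetinib. Vehicle tumours had a lowest, median and highest level of 10.9, 14.7 and 32.1 CPM. Every RMC-7977 tumour was above every other tumour, the closest being RMC-7977 replicate 3 at 34.9 CPM. Among the other groups, the means ran from high to low in the order RMC-4550, trametinib, Vehicle and cobimetinib, and each neighbouring pair in that order had overlapping ranges. The log2 fold change of RMC-7977 was 1.02 ± 0.30 (SE) against RMC-4550, 1.42 ± 0.30 against trametinib, 2.39 ± 0.31 against cobimetinib and 1.63 ± 0.27 against Vehicle.

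P3H2 lies on chromosome 3 at 189956728 to 190122437, minus strand (ENSG00000090530). Its level was 56.0, 68.8, 39.3 and 51.1 CPM in the RMC-7977 tumours and 12.2, 31.5, 19.2 and 32.1 CPM in the RMC-4550 tumours. It was 20.0, 28.7, 22.8 and 30.7 CPM under trametinib and 12.9, 18.4, 10.6 and 13.7 CPM under cobimetinib. Vehicle tumours ranged only between 18.0 and 22.7 CPM with a median of 19.4 CPM. Every RMC-7977 tumour was above every other tumour. The coefficient of variation was 22.7% in RMC-7977 tumours, 40.9% in RMC-4550 tumours and 9.20% in Vehicle tumours. The log2 fold change of RMC-7977 was 1.18 ± 0.25 (SE) against RMC-4550, 1.08 ± 0.25 against trametinib, 1.95 ± 0.26 against cobimetinib and 1.44 ± 0.23 against Vehicle. P3H2-AS1, on the opposite strand, shared none of the exon bases of P3H2 and had a log2 fold change of 2.48 ± 1.09 (SE) in RMC-7977 tumours against Vehicle (adjusted p = 0.405), at a mean of 2.20 CPM.

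B3GNT6 lies on chromosome 11 at 77034398 to 77041973, plus strand (ENSG00000198488), and was the most variable of the 6. Its level was 13.6, 26.7, 4.59 and 29.4 CPM in the RMC-7977 tumours and 1.72, 5.99, 3.46 and 6.33 CPM in the RMC-4550 tumours. It was 2.11, 3.99, 4.97 and 2.40 CPM under trametinib and 3.94, 2.48, 1.02 and 4.26 CPM under cobimetinib. Vehicle tumours had a lowest, median and highest level of 1.92, 6.28 and 10.5 CPM. RMC-7977 replicate 3, at 4.59 CPM, lay within the ranges of RMC-4550, trametinib and Vehicle, and the other 3 RMC-7977 tumours lay above every other tumour. The log2 fold change of RMC-7977 was 2.08 ± 0.56 (SE) against RMC-4550, 2.45 ± 0.58 against trametinib, 2.66 ± 0.58 against cobimetinib and 1.65 ± 0.49 against Vehicle. The standard errors of B3GNT6 were the widest of the 6 genes in these 4 pairs, and its lowest count in a tumour was 15.

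**Figure D2:**
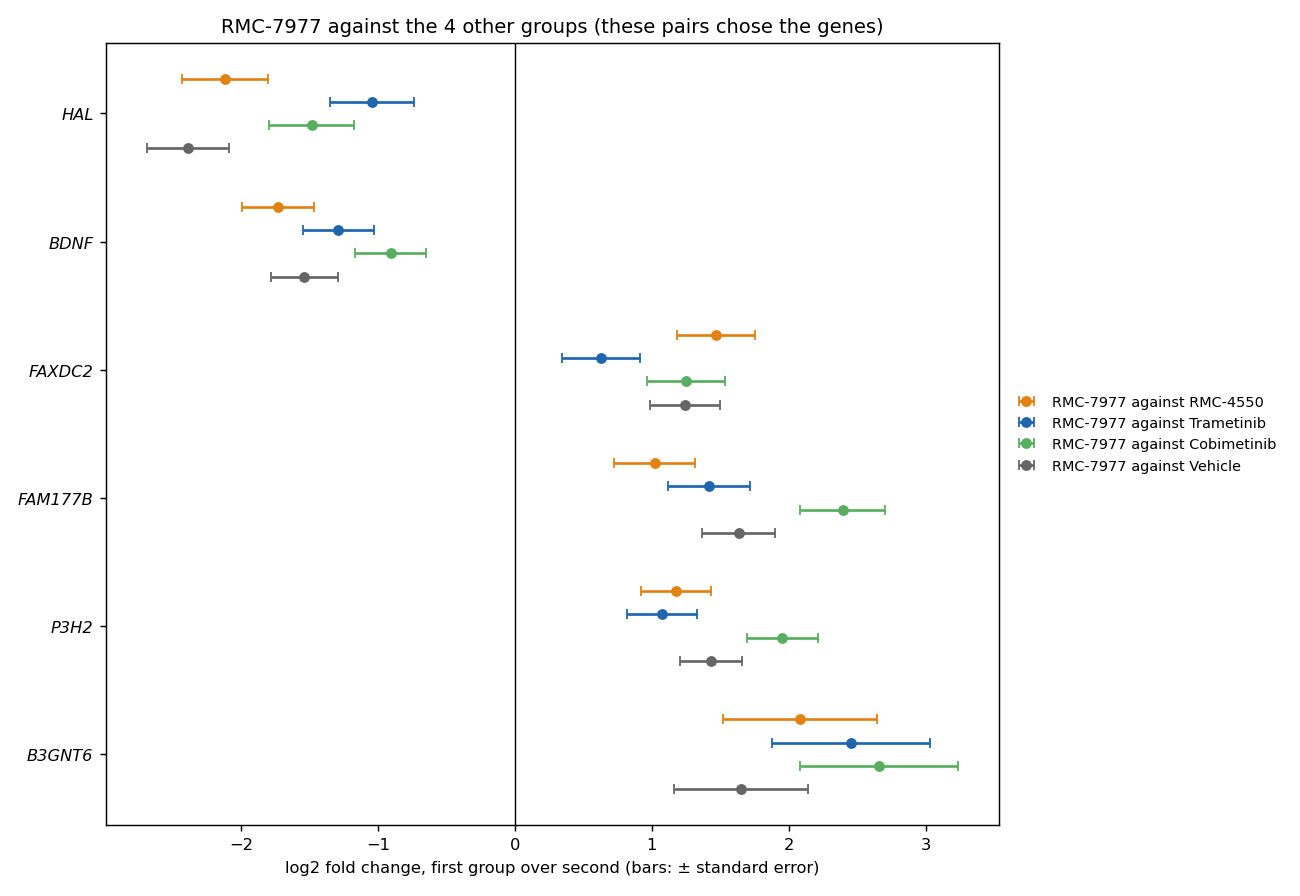
Fitted log2 fold change (x axis, RMC-7977 over the other group) of each gene against RMC-4550, trametinib, cobimetinib and Vehicle, with bars of 1 standard error. All 24 values have the direction described in the text, the smallest being 0.63 for FAXDC2 against trametinib and the largest 2.66 for B3GNT6 against cobimetinib.

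As a count over the pairs that chose them, 3 of the 6 passed an adjusted p of 0.05 in edgeR's quasi-likelihood test against RMC-4550 (HAL, BDNF and FAXDC2), where 0.0906% of all genes tested did. Against trametinib 2 passed (BDNF and FAM177B) beside 0.408% of all genes. Against cobimetinib 4 passed (HAL, FAM177B, P3H2 and B3GNT6) beside 0.278%, and against Vehicle 5 passed, all but B3GNT6, beside 0.748%. Against RMC-4550, FAXDC2 was the gene just inside the threshold at 1.47 ± 0.29 (SE), and P3H2 lay just outside it at 1.18 ± 0.25. The ranges of the 2 groups did not overlap for 5 of the 6 against RMC-4550 beside 8% of all genes, for 3 against trametinib beside 6.14%, for 6 against cobimetinib beside 10.5% and for 5 against Vehicle beside 4.12%. These pairs share the RMC-7977 tumours, and nothing is read from the counts. The count against trametinib was 0 without trametinib replicate 4, 4 without trametinib replicate 2 or 3, 0 without RMC-7977 replicate 1, 2 or 4, and 1 without RMC-4550 replicate 4 or Vehicle replicate 6 or 7. Against cobimetinib it was 2 without any 1 of the 4 cobimetinib tumours or without RMC-7977 replicate 1, 2 or 4. Without the 4 libraries that stood apart, 6 passed against RMC-4550 beside 1.08% of all genes, 5 against trametinib beside 5.3%, 6 against cobimetinib beside 3.79% and 6 against Vehicle beside 6.38%.

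Without the 4 libraries that stood apart, RMC-7977 tumours averaged 10.6 ± 2.44 CPM of HAL, 4.53 ± 0.87 of BDNF, 25.9 ± 3.48 of FAXDC2, 59.3 ± 2.37 of FAM177B, 58.6 ± 9.16 of P3H2 and 23.2 ± 8.43 of B3GNT6 (SD, n = 3). The corresponding Vehicle means were 64.0 ± 26.5, 11.8 ± 2.81, 10.8 ± 4.02, 18.0 ± 8.28, 20.2 ± 1.87 and 6.72 ± 2.60 CPM (SD, n = 5). The direction of each of the 24 fold changes of RMC-7977 held under all 33 alternative settings tried. These pairs chose the genes and the settings largely reuse the same tumours, so this is a description and carries no test.

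The level of B3GNT6 within a group went with the base composition skew of the library. B3GNT6 has a GC content of 63.7% in its exons, higher than 94.7% of the genes tested, against 41.3% in FAM177B, 41.7% in BDNF, 44.8% in P3H2, 49.0% in HAL and 51.4% in FAXDC2. A library's skew was taken as the rank correlation, over genes, of its deviation from the gene medians with GC content. In all 5 groups the tumour with the lowest B3GNT6 in CPM was the tumour with the most negative skew. These were RMC-7977 replicate 3 (−0.43), RMC-4550 replicate 1 (−0.57), trametinib replicate 1 (−0.49), cobimetinib replicate 3 (−0.31) and Vehicle replicate 1 (−0.52). The same was so in CPM in 4 of 5 groups for P3H2, 2 for FAXDC2 and 1 each for HAL, BDNF and FAM177B. As TPM, trametinib replicate 4 (skew −0.11) was instead the lowest of its group for B3GNT6 and P3H2. It was at 1.70 TPM of B3GNT6 and 10.2 TPM of P3H2, against 2.52 and 11.2 TPM in trametinib replicate 1. Across the 22 tumours, after removing group means, the rank correlation of log2 CPM with skew was 0.64 for B3GNT6, 0.51 for FAXDC2, 0.45 for P3H2, 0.08 for FAM177B, −0.09 for BDNF and −0.14 for HAL, where each point shares its library and the skew is computed over all genes. With a correction for GC content the log2 fold change of B3GNT6 in RMC-7977 tumours was 1.95 ± 0.43 (SE) against RMC-4550, 2.00 ± 0.44 against trametinib, 2.84 ± 0.45 against cobimetinib and 1.72 ± 0.37 against Vehicle. The median skew was 0.01 in RMC-7977 libraries, −0.05 under RMC-4550, −0.29 under trametinib, 0.33 under cobimetinib and 0.28 in Vehicle, and the part of this skew in the levels was not tested.

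**Figure D3:**
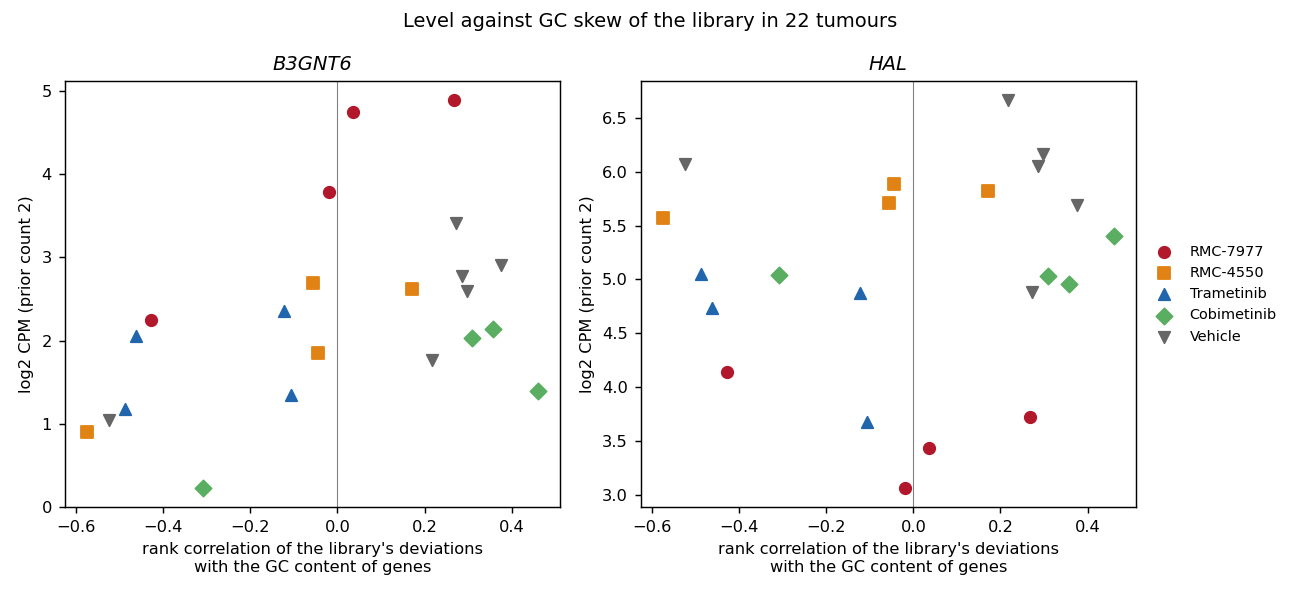
Level of B3GNT6 and HAL (y axis, log2 CPM with a prior count of 2) against the GC skew of each library (x axis, rank correlation of the library's deviations with GC content) in the 22 tumours, coloured by group. The lowest B3GNT6 point of each group is its leftmost point, at a skew between −0.57 and −0.31. For HAL the RMC-7977 tumours lie between 3.06 and 4.14 at skews of −0.43 to 0.27, with trametinib replicate 4 among them at 3.68.

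The 6 pairs of groups without RMC-7977 tumours did not choose the genes and were tested, although they share tumours with the pairs that did. With edgeR and p-values adjusted by Benjamini-Hochberg over 17652 genes, none of the 6 genes passed 0.05 in any of these pairs. For RMC-4550 against Vehicle the count was 0 of 6 beside 0.0283% of all genes, and trametinib and cobimetinib against Vehicle each gave 0 beside 0%. Between drugs it was 0 beside 0% for RMC-4550 against trametinib, 0 beside 0.0283% for RMC-4550 against cobimetinib and 0 beside 0% for trametinib against cobimetinib. At an unadjusted p under 0.05, the count against Vehicle was 1 for RMC-4550 beside 4.24% of all genes, 2 for trametinib beside 18.8% and 4 for cobimetinib beside 3.3%. Between drugs it was 2 for RMC-4550 against trametinib beside 12.3%, 4 for RMC-4550 against cobimetinib beside 6.2% and 3 for trametinib against cobimetinib beside 16.7%. DESeq2 called 0 for RMC-4550 against Vehicle beside 0.203%, 1 for trametinib against Vehicle beside 2.15% and 0 for cobimetinib against Vehicle beside 0.00581%. Between drugs it called 1 for RMC-4550 against trametinib beside 1.01%, 1 for RMC-4550 against cobimetinib beside 0.785% and 0 for trametinib against cobimetinib beside 1.02%. Without the 4 libraries apart, edgeR called 0 for RMC-4550 against Vehicle beside 0.0619%, 1 for trametinib against Vehicle (HAL) beside 15.1%, 0 for cobimetinib against Vehicle beside 0.045%, 0 for RMC-4550 against trametinib beside 0.36%, and 2, FAM177B and P3H2, both for RMC-4550 against cobimetinib beside 0.901% and for trametinib against cobimetinib beside 3.02%. Ranges did not overlap for 0 of 6 in the 3 pairs with Vehicle, beside 1.42% of all genes with RMC-4550, 1.17% with trametinib and 1.48% with cobimetinib. They did not overlap for 2 of 6 between RMC-4550 and trametinib (HAL and FAXDC2) beside 3.98%, for 3 between RMC-4550 and cobimetinib (HAL, BDNF and FAM177B) beside 8.3%, and for 1 between trametinib and cobimetinib (P3H2) beside 7.01%.

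HAL showed the lowest adjusted p of any gene of the 6 in these pairs, in trametinib tumours against Vehicle, with a log2 fold change of −1.35 ± 0.29 (SE), a 95% interval of −1.94 to −0.75 and an adjusted p of 0.0819. This missed the threshold, and under 8 of 33 alternatives it passed, with adjusted p between 0.00266 and 0.978 over them all. HAL passed in this pair without trametinib replicate 1 (adjusted p = 0.0257), 2 (0.0287) or 3 (0.0155), or without Vehicle replicate 1 (0.0470) or 2 (0.0414), and without the 4 libraries apart (0.0131). In cobimetinib tumours HAL had a log2 fold change of −0.90 ± 0.28 (adjusted p = 1) against Vehicle, and in RMC-4550 tumours −0.27 ± 0.27 (adjusted p = 0.986), with a 95% interval of −0.83 to 0.30. RMC-4550 tumours had more HAL than trametinib tumours by 1.08 ± 0.30 on the log2 scale (adjusted p = 0.196), with no overlap, and in DESeq2 the adjusted p was 0.0472.

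Among the pairs without RMC-7977, FAM177B differed most between RMC-4550 and cobimetinib tumours, at 26.2 ± 4.70 and 10.1 ± 2.07 CPM (SD, n = 4 each). The log2 fold change was 1.37 ± 0.30 (SE), with a 95% interval of 0.74 to 2.00 and an adjusted p of 0.0948, and all 4 RMC-4550 tumours were above all 4 cobimetinib tumours. This passed under 6 of 33 alternatives, among them leaving out trametinib replicate 4 (adjusted p = 0.0348) or Vehicle replicate 2 (0.0463), over which the adjusted p lay between 0.00477 and 0.459. Between trametinib and cobimetinib FAM177B had a log2 fold change of 0.98 ± 0.30 (adjusted p = 0.183, or 0.0327 without the 4 libraries apart). Against Vehicle it was 0.61 ± 0.27 under RMC-4550 (adjusted p = 0.986), 0.22 ± 0.27 under trametinib (0.675) and −0.76 ± 0.28 under cobimetinib (1).

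The other 4 genes also gave no call in these pairs with all tumours, but P3H2 passed in RMC-4550 and in trametinib tumours against cobimetinib without the 4 libraries apart. BDNF had a log2 fold change of 0.82 ± 0.25 (SE) in RMC-4550 against cobimetinib tumours (adjusted p = 0.359) and −0.63 ± 0.23 in cobimetinib tumours against Vehicle (adjusted p = 1). FAXDC2 had −0.84 ± 0.29 in RMC-4550 against trametinib tumours (adjusted p = 0.245) and 0.62 ± 0.26 in trametinib tumours against Vehicle (adjusted p = 0.214). P3H2 had 0.88 ± 0.26 in trametinib against cobimetinib tumours (adjusted p = 0.183, or 0.0397 without the 4 libraries) and 0.77 ± 0.25 in RMC-4550 against cobimetinib tumours (adjusted p = 0.415, or 0.0171 without the 4 libraries). The 2 MEK inhibitors gave ranges of P3H2 that did not meet, 20.0 to 30.7 CPM under trametinib and 10.6 to 18.4 CPM under cobimetinib. For B3GNT6 the 95% intervals of all 6 pairs spanned 0, the widest reaching from −0.97 to 1.39 for trametinib against cobimetinib. A p that misses the threshold does not show that 2 groups have the same level.

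**Figure D4:**
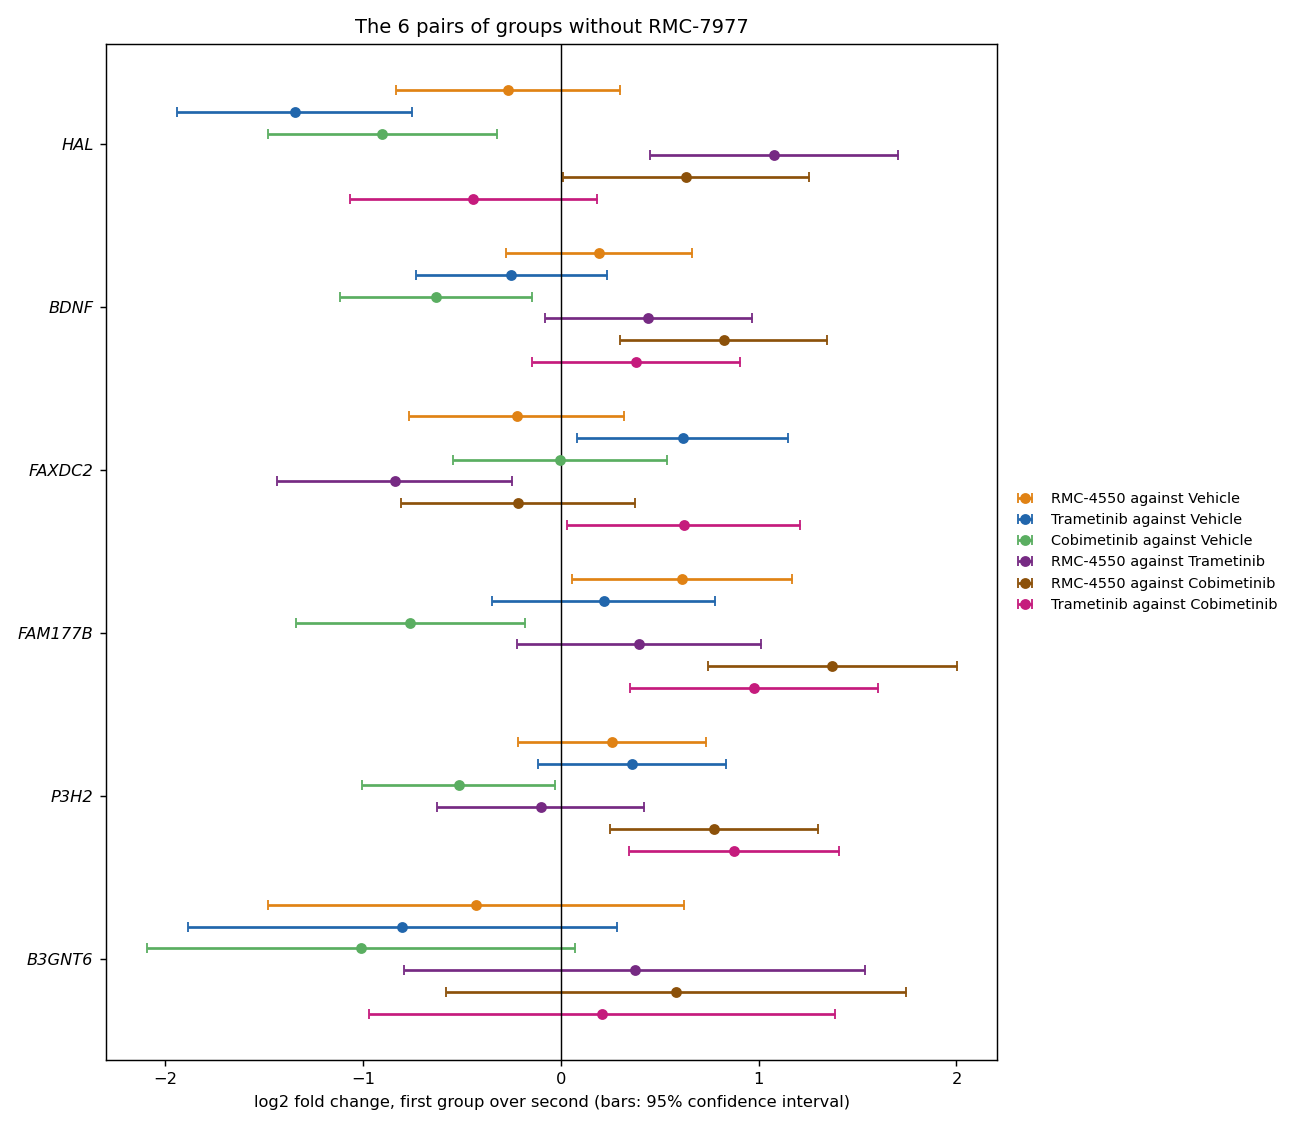
Fitted log2 fold change (x axis, first group over second) of each gene in the 6 pairs of groups without RMC-7977, with 95% confidence intervals. Among the intervals that lie away from 0 are those of HAL in trametinib against Vehicle (−1.94 to −0.75) and of FAM177B in RMC-4550 against cobimetinib (0.74 to 2.00), which had adjusted p of 0.0819 and 0.0948.

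On a per-length scale (TPM, counts divided by gene length and scaled to a fixed sum), the 6 genes ranged from low to moderate. In RMC-7977 tumours FAM177B was highest at 62.1 ± 14.2 TPM, followed by P3H2 at 29.1 ± 5.89, B3GNT6 at 21.2 ± 12.7, FAXDC2 at 10.0 ± 1.76, HAL at 7.31 ± 2.43 and BDNF at 1.65 ± 0.35 (SD, n = 4). In Vehicle tumours HAL was highest at 39.7 ± 15.5 TPM, followed by FAM177B at 20.6 ± 9.10, P3H2 at 11.2 ± 1.35, B3GNT6 at 7.01 ± 3.54, BDNF at 5.00 ± 1.24 and FAXDC2 at 4.34 ± 1.60 (SD, n = 6). HAL therefore stood above 39.2% of the tested genes in RMC-7977 tumours and above 78.2% in Vehicle tumours, and FAM177B above 87.1% and 62.1%.

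Promoter sequences were looked up because 2 genes were lower and 4 higher in RMC-7977 tumours. RefSeq (GRCh38.p14) gave 11 promoters for 5 of the 6 genes, each from 250 bases before to 50 after the start, and B3GNT6 was not among them. For a gene with several, the one shown holds the searched motif nearest to its start, and capitals mark that motif. The HAL promoter at chr12:95996295-95996594 (minus strand) held none.
HAL: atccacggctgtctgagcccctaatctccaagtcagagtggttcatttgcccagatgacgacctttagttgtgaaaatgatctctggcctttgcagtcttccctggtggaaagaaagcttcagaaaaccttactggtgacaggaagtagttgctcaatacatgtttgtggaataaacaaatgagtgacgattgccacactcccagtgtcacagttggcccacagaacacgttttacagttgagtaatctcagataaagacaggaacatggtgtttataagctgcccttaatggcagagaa
BDNF, second of 5, chr11:27720730-27721029 (minus strand): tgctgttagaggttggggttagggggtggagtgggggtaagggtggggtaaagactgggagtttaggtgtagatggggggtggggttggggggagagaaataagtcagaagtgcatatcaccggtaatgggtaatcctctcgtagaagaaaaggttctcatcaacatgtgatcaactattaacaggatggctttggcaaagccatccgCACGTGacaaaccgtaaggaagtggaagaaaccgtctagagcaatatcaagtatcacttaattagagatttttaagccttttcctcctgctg
FAXDC2, chr5:154850554-154850853 (minus strand): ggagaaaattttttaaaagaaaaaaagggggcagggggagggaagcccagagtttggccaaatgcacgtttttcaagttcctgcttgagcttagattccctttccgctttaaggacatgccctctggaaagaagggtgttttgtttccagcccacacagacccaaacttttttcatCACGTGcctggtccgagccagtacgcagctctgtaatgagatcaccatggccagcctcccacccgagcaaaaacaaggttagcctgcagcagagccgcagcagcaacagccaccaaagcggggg
FAM177B, first of 2, chr1:222736952-222737251 (plus strand): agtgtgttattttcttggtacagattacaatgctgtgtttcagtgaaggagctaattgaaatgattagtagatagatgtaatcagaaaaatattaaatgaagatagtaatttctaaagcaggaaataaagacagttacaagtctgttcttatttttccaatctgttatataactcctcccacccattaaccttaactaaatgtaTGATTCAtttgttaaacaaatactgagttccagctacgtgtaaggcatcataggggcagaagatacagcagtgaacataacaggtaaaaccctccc
P3H2, second of 2, chr3:190120848-190121147 (minus strand): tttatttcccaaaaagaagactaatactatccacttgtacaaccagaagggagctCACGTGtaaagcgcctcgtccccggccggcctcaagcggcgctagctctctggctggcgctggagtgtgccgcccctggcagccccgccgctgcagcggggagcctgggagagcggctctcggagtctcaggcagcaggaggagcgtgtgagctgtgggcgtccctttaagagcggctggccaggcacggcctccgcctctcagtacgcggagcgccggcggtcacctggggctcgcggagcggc

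Searched on both strands were TGANTCA (the AP-1 site bound by FOS and JUN proteins), TGACGTCA (CRE), GTAAACA (forkhead), CCGGAAG (ETS) and CACGTG (E-box), none of which contains another. An E-box stood 42 bases before the start in the second BDNF promoter, 74 bases before it in FAXDC2 and 195 bases before it in the second P3H2 promoter. The first FAM177B promoter held an AP-1 match 46 bases before the start, and the first BDNF promoter a forkhead match 96 bases before it. Of all 34943 promoters of the same length, 7.23% held the E-box, 7.72% the AP-1, 3.42% the forkhead, 10.2% the ETS and 1.84% the CRE letters. The matches are a description of these letters only.

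The genes next to the 6 on the chromosome did not pass the threshold in RMC-7977 tumours against Vehicle. AMDHD1, which encodes imidazolonepropionase of the same histidine pathway, lies 3946 bp from HAL on the opposite strand. It averaged 3.14 ± 1.47 CPM in RMC-7977 tumours, 10.3 ± 2.18 in RMC-4550, 7.73 ± 5.16 in trametinib, 6.91 ± 1.05 in cobimetinib and 6.34 ± 2.14 in Vehicle tumours (SD, n = 4 per drug, n = 6 for Vehicle). Its log2 fold change in RMC-7977 tumours was −1.71 ± 0.40 (SE) against RMC-4550 (adjusted p = 0.109), −1.28 ± 0.40 against trametinib (0.114), −1.14 ± 0.40 against cobimetinib (0.349) and −1.02 ± 0.37 against Vehicle (0.261). On the other side of HAL, LTA4H, the leukotriene A4 hydrolase, had 0.04 ± 0.17 against Vehicle (adjusted p = 0.982). BROX, 2011 bp from FAM177B on the same strand, had 0.41 ± 0.18 (adjusted p = 0.394), and ACER3, 7601 bp from B3GNT6 on the same strand, had −0.31 ± 0.26 (adjusted p = 0.794). Beside P3H2, TP63 had −0.35 ± 0.20 (adjusted p = 0.605) and CLDN1, a tight junction claudin, 0.07 ± 0.18 (adjusted p = 0.964).

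The pathways of the 6 genes were followed in lists of other genes, in 7 comparisons of RMC-7977 with each other group and of each other drug with Vehicle. Over all genes and the 7 comparisons together, 0.222% of gene and comparison pairs passed 0.05 in edgeR, 9.96% had an unadjusted p under 0.05, 1.83% passed in DESeq2, and 4.54% passed in edgeR without the 4 libraries apart. Of 10 tested genes of a list around histidine (15 listed), none passed 0.05 in edgeR in any of the 7 comparisons. The list also holds genes outside histidine breakdown, among them HARS1, HARS2, CARNS1, CARNMT1 and SLC15A4. AMDHD1 was among those tested, while UROC1 and FTCD of the same breakdown were not, so the list does not survey the pathway of HAL. Over the 70 gene and comparison pairs, 7 had an unadjusted p under 0.05, DESeq2 called 3, and 5 passed without the 4 libraries. By a mean over the 22 tumours the most abundant were ALDH9A1 at 51.1 CPM and CARNMT1 at 50.6 CPM, closely followed by the next at 50.4 CPM. ALDH9A1, an aldehyde dehydrogenase, was at 53.0 ± 4.31 CPM in RMC-7977 tumours and 52.1 ± 13.5 CPM in Vehicle tumours, and CARNMT1, the carnosine N-methyltransferase, at 44.8 ± 7.51 CPM in RMC-7977 tumours and 53.1 ± 19.7 CPM in Vehicle tumours. The median log2 fold change of this list in RMC-7977 tumours against Vehicle was 0.01, beside −0.01 over all genes.

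None of 9 tested neurotrophin signalling genes (22 listed) passed in any of the 7 comparisons, with 3 of 63 at an unadjusted p under 0.05, 0 in DESeq2 and 4 without the 4 libraries apart. FURIN, a protease that can cleave the BDNF precursor, was at 923 ± 351 CPM in RMC-7977 tumours and 1242 ± 494 CPM in Vehicle tumours (adjusted p = 0.879). CPE, carboxypeptidase E, was at 735 ± 34.1 CPM in RMC-7977 tumours and 774 ± 145 CPM in Vehicle tumours (adjusted p = 0.958).

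Of 11 tested genes of the sterol desaturase and fatty acid hydroxylase list (13 listed), none passed, with 9 of 77 at an unadjusted p under 0.05, 2 in DESeq2 and 4 without the 4 libraries. Of the 9, 6 were in RMC-7977 against trametinib and 2 in trametinib against Vehicle. The median log2 fold change of the list was 0.36 in RMC-7977 tumours against Vehicle and −0.38 in trametinib tumours against Vehicle, beside −0.01 over all genes in both. DHCR7, of the last step of cholesterol synthesis, was at 220 ± 73.1 CPM in RMC-7977 tumours, against 177 ± 72.5 CPM in Vehicle tumours (adjusted p = 0.824). FAM177A1, the paralog of FAM177B, was at 96.4 ± 21.6 CPM in RMC-7977 tumours and 74.3 ± 15.4 CPM in Vehicle tumours, with a log2 fold change of 0.38 ± 0.24 (SE, adjusted p = 0.665). It did not pass in any of the 7 comparisons, with 1 at an unadjusted p under 0.05, 0 in DESeq2 and 1 without the 4 libraries.

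None of 23 tested genes of a collagen list (26 listed) passed, with 18 of 161 at an unadjusted p under 0.05, 2 in DESeq2 and 7 without the 4 libraries apart. The list holds collagen-modifying genes and also the type IV collagen chains COL4A1 to COL4A6. P4HB, the beta subunit of prolyl 4-hydroxylase, was at 1098 ± 199 CPM in RMC-7977 tumours and 1026 ± 162 CPM in Vehicle tumours (adjusted p = 0.957), and PLOD2, a lysyl hydroxylase, at 291 ± 55.2 CPM in RMC-7977 tumours and 362 ± 68.3 CPM in Vehicle tumours (adjusted p = 0.689). Of 30 tested O-glycan enzymes (33 listed), 1 passed in 1 of the 7 comparisons, with 25 of 210 at an unadjusted p under 0.05, 2 in DESeq2 and 14 without the 4 libraries. ST6GALNAC1, the sialyltransferase that makes the sialyl-Tn antigen, was higher in RMC-7977 tumours at 52.0 ± 14.5 CPM than in cobimetinib tumours at 24.1 ± 2.68 CPM (SD, n = 4 each), with a log2 fold change of 1.11 ± 0.23 (SE) and an edgeR adjusted p of 0.0406. It passed in this comparison under 14 of 33 alternatives, with adjusted p between 0.00215 and 0.208. Against Vehicle (32.5 ± 4.61 CPM) its log2 fold change was 0.68 ± 0.21 (adjusted p = 0.144). The list's median log2 fold change against cobimetinib was 0.34, beside −0.01 over all genes.

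The mean log2 CPM of 9 tested genes that report ERK output was taken in the same tumours. It was 2.67 ± 0.27 in RMC-7977, 3.31 ± 0.41 in RMC-4550, 3.23 ± 0.77 in trametinib, 4.18 ± 0.21 in cobimetinib and 4.81 ± 0.37 in Vehicle tumours (SD, n = 4 per drug, n = 6 for Vehicle). In the same order of groups, mean HAL was 12.3, 53.7, 25.3, 34.6 and 64.6 CPM. Both were lowest in RMC-7977 and highest in Vehicle tumours, while RMC-4550 tumours were below cobimetinib tumours in this mean and above them in HAL. Whether any of the 6 genes goes with this mean was not tested.

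Genes with the most similar pattern to each member were taken from 11792 protein-coding genes by Spearman's rho of log2 CPM over the 22 tumours, which share library effects between genes. HAL was most like MOCOS (0.93), PLK2 (0.91) and SGK1 (0.91), and FAM177B most like SYBU (0.94), SCIN (0.93) and VTCN1 (0.91). B3GNT6 was most like USP54 (0.91), UCP2 (0.91) and YIPF3 (0.91). BDNF was most like EXO1, AKR1C2 and STYXL1 (all 0.83), FAXDC2 like SERINC5 (0.85) and CDC14B (0.85), and P3H2 most like SWAP70 (0.84), PIK3IP1 (0.82) and TTLL1 (0.80). Among the 6 themselves, the rho was −0.81 for HAL with FAXDC2 and 0.61 for HAL with BDNF. Over the 18 tumours of the other groups, without RMC-7977, these were −0.69 and 0.39. After removing group means, FAXDC2 and B3GNT6 had a rho of 0.79 and FAXDC2 and FAM177B of 0.64, while HAL and BDNF had −0.09.

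Markers of other cell types were measured beside these results, since in bulk tumours fewer cells of a type and less RNA per cell cannot be told apart. Epithelial markers of lung adenocarcinoma were all 10 tested and summed to 4118 to 6914 CPM in RMC-7977 and 5113 to 6359 CPM in Vehicle tumours. KRT19 was higher in RMC-7977 tumours at 1591 ± 378 CPM than in cobimetinib tumours at 627 ± 156 CPM (log2 fold change 1.34 ± 0.26 SE, adjusted p = 0.0205), and passed under 27 of 33 alternatives. Against Vehicle, at 848 ± 218 CPM, KRT19 had 0.91 ± 0.23 (adjusted p = 0.0612), and KRT8 and KRT18 had −0.54 ± 0.22 (0.337) and −0.65 ± 0.20 (0.149). EPCAM was at 290 to 518 CPM and KRT7 at 892 to 1606 CPM over all tumours, but the lung markers NKX2-1, NAPSA and SFTPB averaged 4.15, 1.32 and 4.72 CPM. Keratinocyte markers, listed because skin uses HAL, had 4 of 9 tested, with summed levels of 56.8 to 74.0 CPM in RMC-7977 and 50.1 to 59.4 CPM in Vehicle tumours, of which KRT10 made most. IVL and KRTDAP were at 0 in every tumour. Neural and Schwann markers, listed for BDNF, had 3 of 7 tested. They summed to 3.88 to 7.44 CPM in RMC-7977 and 5.21 to 8.40 CPM in Vehicle tumours. In trametinib tumours the sums ran from 3.10 to 64.5 CPM with a median of 5.96 CPM, beside a Vehicle median of 5.96 CPM. Fibroblast markers, listed for P3H2, had 1 of 8 tested, COL1A1, with sums of 91.4 to 213 CPM in RMC-7977 and 21.4 to 305 CPM in Vehicle tumours. Goblet and colonic markers, listed for B3GNT6, had 4 of 8 tested, mostly AGR2, with sums of 1188 to 1383 CPM in RMC-7977 and 668 to 1349 CPM in Vehicle tumours, while MUC2 and CDX2 averaged 0.19 and 0.01 CPM.

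Myeloid markers (4 of 8 tested) summed to 6.96 to 10.7 CPM in RMC-7977, 8.52 to 15.0 in RMC-4550, 15.2 to 38.7 in trametinib, 11.2 to 22.4 in cobimetinib and 11.8 to 27.1 CPM in Vehicle tumours. LAPTM5 was lower in RMC-7977 than in Vehicle tumours at 0.40 ± 0.44 and 5.40 ± 3.16 CPM (log2 fold change −3.76 ± 0.66 SE, adjusted p = 0.00591), while CD68 averaged 0.02 CPM and PTPRC 0.41 CPM. LAPTM5 passed under 30 of 33 alternatives, with adjusted p up to 0.161. The tested markers CD14, CSF1R and ITGAM did not pass in edgeR in this pair (adjusted p = 0.289, 0.714 and 0.941). Endothelial markers (5 of 8 tested) summed to 19.1 to 77.9 CPM in RMC-7977 and 40.6 to 198 CPM in Vehicle tumours. PECAM1 was lower in RMC-7977 than in Vehicle tumours at 9.42 ± 6.75 and 30.8 ± 11.0 CPM (−1.71 ± 0.36, adjusted p = 0.0235), and passed under 25 of 33 alternatives, with adjusted p up to 0.596. CLDN5, CDH5 and TEK were also lower in this pair, at −1.305 ± 0.576, −1.167 ± 1.055 and −0.825 ± 0.894. These did not pass in edgeR (adjusted p = 0.411, 0.824 and 0.862). VWF was the tested marker that was higher, at 2.52 ± 1.00 CPM in RMC-7977 and 1.48 ± 0.93 CPM in Vehicle tumours (0.77 ± 0.71, adjusted p = 0.827), while KDR averaged 0.07 CPM. The part of these differences in the levels of the 6 genes was not tested.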

How the data were processed

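The deposited table held raw read counts per gene in 1 column per tumour, whole numbers for 58735 genes and 22 tumours. The submitters' processing notes name edgeR (3.22.5), DESeq2 (1.20.0), featureCounts (1.5.0-p3), HISAT2 (2.0.5) and fastp, with the build hg38, and per the labels' protocols the libraries were strand-specific. How strand, multi-mapping reads and host reads were treated, and which annotation release served, is not given in the sources used here.

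From these counts, genes were filtered by edgeR (4.0.16, minimum count 10) in R (4.3.3), which left 17652 genes with 99.718% of counts. A quasi-likelihood model with TMM scaling and 1 mean per group was fitted to all 22 tumours, with Benjamini-Hochberg adjustment over all genes tested and a threshold of 0.05. CPM used TMM library sizes, log2 CPM a prior count of 2, and TPM the gene lengths of the table. Intervals are at 95%. GC content came from GENCODE 29, in which 58724 of the genes had the same start and end. The pipeline was tested on simulated data. No 2 libraries held the same counts.

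The 6 genes, the pathway lists and the marker lists were chosen with earlier results of these data known. Besides the 6, the text names up to 4 genes per pathway list past the threshold or else the 2 most abundant, the 3 most similar genes per member, and overlapping or nearest tested genes, of which some without a result of interest are not printed. A few genes that these rules name are not reported here. AMDHD1, a neighbour, and single markers were picked for printing after their values were seen. Counting error is a lower bound on the error.

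Each result was repeated with a replicate block, with DESeq2 (1.42.0), with only the 2 groups compared, without each tumour, with scaling by RLE or library size, and with no filter or a minimum mean CPM of 1. Added after seeing the data were fits without the 2 or 4 libraries that stood apart, a GC correction, and that correction with the block. Replicate numbers are given by the labels without a meaning. The deviations of same-numbered tumours correlated over 0.1 in all 3 pairs only for RMC-4550 with Vehicle (0.170 to 0.711) and trametinib with Vehicle (0.136 to 0.202).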

Additional observations from a re-analysis of the deposited data

Results flagged for a closer look

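Within the 6 Vehicle tumours, FAM177B in replicate 2 stood at 32.1 CPM, far from the other 5, which lay between 10.9 and 17.4 CPM. This was the 1 gap past Dixon's 95% critical value among the 30 combinations of gene and group looked at, and chance flags about 1 in 20 such groups. Without this tumour the log2 fold change of FAM177B in RMC-7977 tumours against Vehicle was 1.90, against 1.63 with it.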

How the results depend on the processing

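Among the 36 values of a gene in a pair without RMC-7977, 1151 of 1188 repeats under 33 alternatives kept their direction and side of the threshold, 18 passed it and 19 changed sign, all 19 of small values with no call. The count of members called in trametinib against Vehicle tumours was 1 in place of 0 with DESeq2, with a mean CPM of at least 1 and without the 4 libraries apart, and 0 to 1 when leaving out each tumour. For RMC-4550 against cobimetinib it was 1 with DESeq2, with only the 2 groups compared and without 2 libraries, 2 without 4 libraries, and 0 to 1 when leaving out each tumour. It was 1 with DESeq2 for RMC-4550 against trametinib and 2 without 4 libraries for trametinib against cobimetinib.

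Sign changes were as follows. HAL in RMC-4550 against Vehicle was 0.21 ± 0.32 (SE) with the replicate block and 0.16 with block and GC correction, against −0.27 as reported; the pairing changed no call of the 6 genes in the 2 pairs whose numbers pair, and with the block the members called were 0 in all 6 tested pairs. In pairs whose tumours share only a number, the block left 0 in place of 5 genes passing in RMC-7977 against Vehicle and 0 in place of 2 against trametinib. FAXDC2 in cobimetinib against Vehicle was 0.0094 with the GC correction, 0.050 with library-size scaling, 0.0049 without a filter, and −0.13 to 0.17 when leaving out each tumour. P3H2 in RMC-4550 against trametinib was 0.0014 without 2 libraries, 0.23 without 4, and −0.28 to 0.074 when leaving out each tumour. B3GNT6 was −0.065 in RMC-4550 against trametinib with block and GC correction, and −0.10 to 0.42 in trametinib against cobimetinib when leaving out each tumour.

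The number of all genes passing moved far more. Without the 4 libraries apart it was 192 in place of 16 in RMC-7977 against RMC-4550, 941 in place of 72 against trametinib, 674 in place of 49 against cobimetinib and 1134 in place of 132 against Vehicle, with DESeq2 167, 763, 278 and 536. In the pairs without RMC-7977 it was 2686 in place of 0 for trametinib against Vehicle, 537 in place of 0 for trametinib against cobimetinib, 160 in place of 5 for RMC-4550 against cobimetinib, 64 in place of 0 for RMC-4550 against trametinib, 11 in place of 5 for RMC-4550 against Vehicle and 8 in place of 0 for cobimetinib against Vehicle. The cause was not tested. With 4 tumours per drug and counts of B3GNT6 down to 15, small differences were not detectable at this depth.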
